A study of Mus musculus with 5 samples.

Results

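The nuclei described here are 318 putative vascular endothelial nuclei, 0.655% of the 48533 liver nuclei that passed the filters on genes and mitochondrial counts, and came from matrices holding 57080 barcodes. A nucleus was taken when it had at least 300 genes, a mitochondrial share under 10%, no UMI (unique molecular identifier, 1 counted RNA molecule) of the 6 genes Hnf4a, Ptprc, Pkhd1, Col3a1, Clec4g and Stab2, at least 1 UMI of the endothelial genes Ptprb, Egfl7, Pecam1 or Cdh5, and at least 1 UMI of Vwf, Cd34, Rspo3, Plvap or Wnt9b. Sinusoidal nuclei, the class they are compared with, met the same endothelial rule, had a UMI of Stab2 or Clec4g and none of Vwf, and numbered 1384. The nuclei were thus chosen by the measured UMIs of these 15 genes, whose values are given as descriptions, without a test.

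The livers came from male wild-type C57BL6/J mice that were fed either regular chow or a MASH (metabolic dysfunction–associated steatohepatitis) diet that held 2% cholesterol and drew 40 kcal% from fat and 20 kcal% from fructose. Feeding began at 10 to 12 weeks of age and lasted 5 months, and nuclei were sorted from snap-frozen tissue before droplet-based 3' single-nucleus RNA-seq (snRNA-seq). There were 3 chow libraries (Chow 1, 2 and 3) and 2 MASH libraries (MASH 1 and 2), each with 35612373 to 49137377 UMIs. Whether a library held 1 mouse or a pool was not stated, so all p-values below measure only the spread between libraries.

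Blood enters the liver lobule through portal veins and hepatic arteries, crosses the sinusoids and leaves through central veins. Sinusoidal endothelium is fenestrated and clears waste through scavenger receptors, whereas the endothelium of the larger vessels is continuous and stores von Willebrand factor (Vwf). Central vein endothelium is known as a source of the Wnt pathway signals Rspo3 and Wnt9b that maintain the pericentral program of hepatocytes, Plvap forms the diaphragms of endothelial openings, and Cd34 marks the endothelium of larger vessels and capillaries. Rspo3 is also made by hepatic stellate cells (HSCs), the pericytes of the sinusoid.

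Chow 1, 2 and 3 contributed 47, 22 and 49 vascular nuclei and MASH 1 and 2 contributed 56 and 144, so that MASH 2 alone held 144 of the 318. The nuclei were shallow, with a median of 1051 to 1333.5 UMIs per library and a range from 513 to 12945. Sinusoidal nuclei had a similar median of 992.5 to 1325 UMIs, and Hnf4a-positive nuclei, which are hepatocytes by that marker, had 3662 to 5039.5. Summed over each library, the vascular nuclei held 90423, 35553 and 70177 UMIs in chow and 97496 and 217594 in MASH. Libraries shared 23 to 48 barcodes pairwise (0.254% to 0.399% of the smaller library). Of the 318 nuclei, 26 were among the nuclei of highest doublet score in their library, whose number was set by an assumed rate.

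The rule rested on few molecules. Just inside it, 178 of the 318 nuclei had exactly 1 UMI of the vascular markers and 140 had at least 2. The share with exactly 1 was 57.4%, 40.9% and 40.8% in Chow 1, 2 and 3 and 67.9% and 58.3% in MASH 1 and 2. Just outside it, 1359 nuclei with an endothelial gene had neither a vascular nor a sinusoidal marker, and 90 nuclei had a vascular marker beside exactly 1 UMI of Stab2 or Clec4g. A further 137 had a vascular marker beside at least 2 such UMIs. Of the 1384 sinusoidal nuclei, 206 had a UMI of Cd34, Rspo3, Plvap or Wnt9b, so the classes share these markers in part.

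The vascular nuclei were split by the marker that admitted them. Vwf was present in 122 (38.4%), Rspo3 or Wnt9b without Vwf in 75 (23.6%), Plvap without any of these in 97 (30.5%) and Cd34 alone in 24 (7.55%). Of the single-marker sets, Plvap alone held 93 nuclei, Rspo3 alone 55 and Vwf alone 47, while Vwf and Rspo3 occurred together without another marker in 36. Because a nucleus entered through any of the 5 markers, these sets describe the rule as much as the tissue.

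Genes outside the rule separated these sets. Bmp4, a secreted BMP ligand, stood at 694 CPM (the gene's UMIs scaled to a common total over all UMIs of the set) in the Vwf nuclei, 273 in the Rspo3 or Wnt9b nuclei, 68.8 in the Plvap nuclei and 0 of 45143 UMIs in the Cd34 nuclei, against 7.75 in sinusoidal nuclei. Edn1, which encodes the vasoconstrictor endothelin-1, followed the same order at 671, 273, 113 and 0 CPM. Selp (P-selectin, the adhesion receptor that captures leukocytes) was about as high in the Rspo3 or Wnt9b nuclei (424) as in the Vwf nuclei (413), with 50.1 in the Plvap nuclei. A count of 0 among 45143 UMIs still allows up to 66.5 CPM. The Plvap and Cd34 nuclei were thus nearer to the sinusoidal level for these genes than the Vwf nuclei were. These are sums over 5 libraries with no test, and any gene found along with a marker in the same nucleus is selected with it.

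Endothelial genes had UMIs in all sets, but the rule itself asked for a UMI of Ptprb, Egfl7, Pecam1 or Cdh5. Pecam1, a junctional adhesion molecule, stood at 803, 470, 344 and 199 CPM in the Vwf, Rspo3 or Wnt9b, Plvap and Cd34 nuclei. Nr2f2, the COUP-TFII regulator of venous identity, stood at 723, 545, 482 and 465, against 462 in sinusoidal nuclei. Kdr, a VEGF receptor outside the rule, was at 161, 174, 250 and 310, below the sinusoidal level of 455. Sinusoidal genes were lower than in the sinusoidal class in every set: Fcgr2b, the inhibitory Fc receptor, was at 184, 159, 207 and 155 against 579.

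HSC transcripts ran through part of the class. At least 1 UMI of the HSC genes was found in 127 of the 318 vascular nuclei (39.9%) and in 304 of the 1384 sinusoidal nuclei (22%). By set the share was 32.8% for Vwf, 50.7% for Rspo3 or Wnt9b, 45.4% for Plvap and 20.8% for Cd34. Dcn (decorin, a matrix proteoglycan of HSCs and fibroblasts) reached 674 CPM in the Rspo3 or Wnt9b nuclei and 363 in the Plvap nuclei, against 103 in the Vwf nuclei and 109 in sinusoidal nuclei. Reln, known in the liver from HSCs, stood at 409, 163 and 23.0 in those 3 sets and 44.1 in sinusoidal nuclei. The part that HSC RNA or doublets with HSCs play in the values below was not tested, and results with nuclei carrying an HSC UMI left out of both classes are given where they differ. Bmp4 and Edn1 were highest in the Vwf nuclei and Selp was at a similar level in the Vwf and the Rspo3 or Wnt9b nuclei, and the name vascular nuclei is used below for all nuclei that met the rule.

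**Figure D1:**
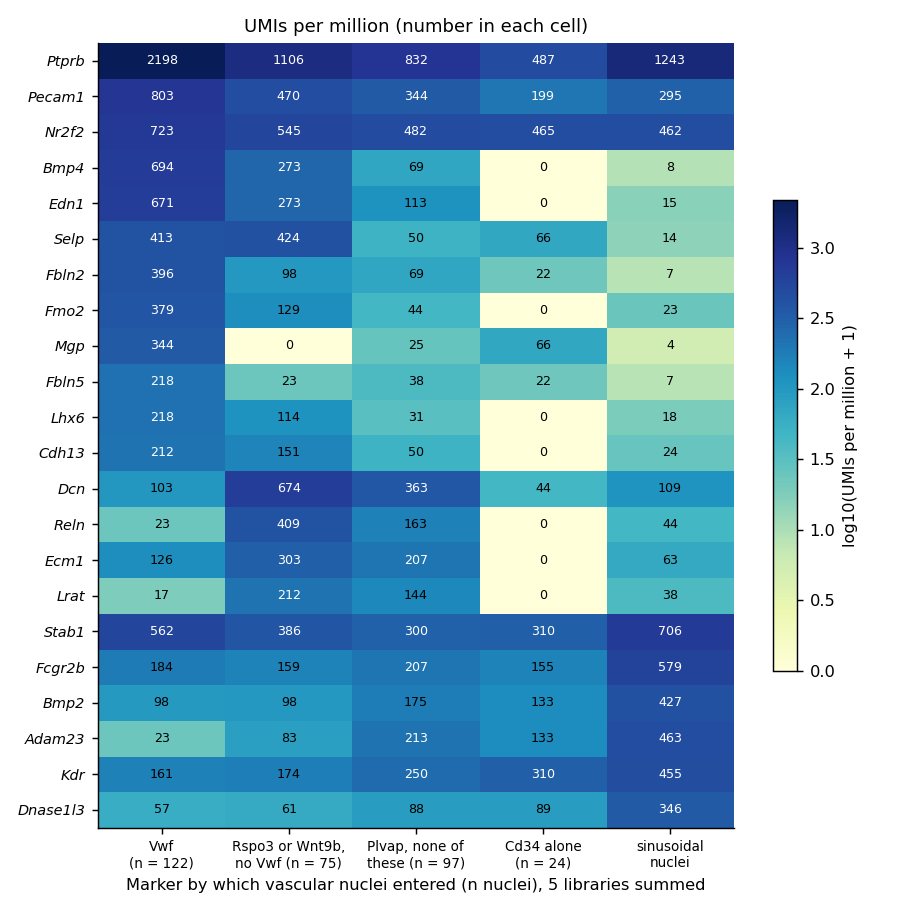
Levels of 22 genes (rows) in the 4 sets of vascular nuclei and in sinusoidal nuclei (columns), as CPM (UMIs scaled to a common total) over the summed 5 libraries. Colour is log10 of CPM plus 1 and the number in each cell is the value itself. Bmp4, Edn1, Fbln2 and Fmo2 were highest in the Vwf nuclei, whereas the HSC genes Dcn, Reln, Ecm1 and Lrat were highest in the Rspo3 or Wnt9b nuclei.

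To ask what distinguishes these nuclei from sinusoidal endothelium, the counts of each class were summed per library and compared within libraries with the edgeR quasi-likelihood test. The 15 genes of the rule stayed in the fit and were left out of the numbers of genes tested and called. Of 4332 genes tested, 139 (3.21%) differed at a Benjamini-Hochberg adjusted p under 0.05, 82 higher (1.89%) and 57 lower (1.32%) in vascular nuclei. The classes were cut by markers, so genes expressed along with those markers are selected with them, and the contrast describes the classes. With the HSC-positive nuclei left out, 67 genes were called, and without MASH 2, 71. Levels below are CPM with TMM scaling over the tested genes, and fold changes are on the log2 scale with their standard error (SE).

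The 3 genes with the smallest adjusted p among those higher in vascular nuclei and with a promoter entry were Bmp4, Edn1 and Selp. Bmp4 (chromosome 14, 46383520 to 46390669, minus strand, GRCm38) had 30, 5 and 12 UMIs in the vascular nuclei of Chow 1, 2 and 3 and 18 and 103 in MASH 1 and 2, against 6, 0, 2, 6 and 5 in the sinusoidal nuclei. Its level was 305 ± 146 CPM (SD, n = 5) in vascular and 8.38 ± 6.89 CPM in sinusoidal nuclei, 5.24 ± 0.32 higher on the log2 scale (adjusted p = 3.49e-20). Every library showed the difference, and the lowest vascular library lay above the highest sinusoidal one. At least 1 Bmp4 UMI was found in 18.2% to 27.7% of vascular nuclei per library, in 0% to 2.96% of sinusoidal nuclei and in 1.26% to 5.29% of the deeper Hnf4a-positive nuclei.

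Edn1 (chromosome 13, 42301476 to 42307990, plus strand) had 28, 6 and 38 vascular UMIs in chow and 19 and 80 in MASH, against 9, 0, 2, 4 and 21 sinusoidal UMIs, and stood 4.54 ± 0.30 higher on the log2 scale (adjusted p = 2.47e-19). Selp (chromosome 1, 164115264 to 164150026, plus strand) had 13, 6, 88, 9 and 23 vascular and 9, 0, 9, 6 and 10 sinusoidal UMIs in the same library order, with a log2 fold change of 4.22 ± 0.33 (adjusted p = 1.44e-15). Chow 3 alone carried 88 of the 139 vascular Selp UMIs. Mgp, an inhibitor of vascular calcification, stood 4.92 ± 0.49 higher, but the 23 UMIs of Chow 2 all lay in 1 nucleus. Fbln2, a fibulin of the vessel wall matrix, had 8, 7 and 12 vascular UMIs in chow and 23 and 44 in MASH against 3, 1, 0, 4 and 10 in sinusoidal nuclei, and stood 4.49 ± 0.37 higher.

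The promoters of these 3 genes are shown because their genes were higher together in the vascular class. Each window runs from 250 bases before to 50 bases after the start of the gene and was taken from RefSeq on GRCm38.p6, written 5′ to 3′ along the gene. Capitals mark the GATA motif AGATAA or its reverse complement TTATCT and the ETS motif AGGAAG or its reverse complement CTTCCT, the 2 motifs searched, which are the core letters bound by factor families active in endothelium and which do not overlap each other here.
Bmp4, chr14:46390620-46390919, minus strand: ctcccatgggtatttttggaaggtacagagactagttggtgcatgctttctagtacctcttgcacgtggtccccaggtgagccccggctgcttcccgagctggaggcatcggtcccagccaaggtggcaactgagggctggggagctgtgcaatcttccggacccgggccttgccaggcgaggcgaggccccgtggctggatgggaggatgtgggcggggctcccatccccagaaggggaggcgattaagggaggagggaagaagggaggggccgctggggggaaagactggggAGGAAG
Edn1, chr13:42301226-42301525, plus strand: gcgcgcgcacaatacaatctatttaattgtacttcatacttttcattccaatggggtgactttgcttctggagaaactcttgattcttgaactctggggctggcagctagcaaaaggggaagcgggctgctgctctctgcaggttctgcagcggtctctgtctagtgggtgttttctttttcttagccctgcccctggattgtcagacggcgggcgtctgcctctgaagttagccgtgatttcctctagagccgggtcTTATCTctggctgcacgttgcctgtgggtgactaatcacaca
Selp, chr1:164115014-164115313, plus strand: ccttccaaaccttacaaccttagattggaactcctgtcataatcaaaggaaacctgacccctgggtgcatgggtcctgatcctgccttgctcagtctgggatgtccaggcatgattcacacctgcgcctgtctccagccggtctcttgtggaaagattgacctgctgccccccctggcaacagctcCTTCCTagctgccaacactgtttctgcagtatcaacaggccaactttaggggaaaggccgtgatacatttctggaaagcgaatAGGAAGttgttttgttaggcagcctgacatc
Bmp4 held the ETS letters at 1 place, Edn1 the GATA letters at 1 place and Selp the ETS letters at 2 places. Of all 27025 promoters in the table, 11.4% held the GATA letters and 35.1% the ETS letters. Of the 82 genes higher in vascular nuclei 57 had an entry, of which 8.77% held the GATA and 49.1% the ETS letters. A match of these letters is a description and no evidence of binding.

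Further genes higher in vascular nuclei included Fbln5, an elastic fibre protein (3.68 ± 0.45, with all 8 UMIs of Chow 1 in 1 nucleus), Dnm3, a dynamin of membrane fission (3.77 ± 0.39), Fmo2, a flavin monooxygenase (2.95 ± 0.35), Rbms3, an RNA-binding protein (2.86 ± 0.29), Lhx6, a LIM homeobox regulator (2.72 ± 0.38), Pdzd2 (2.66 ± 0.31) and Cdh13, the anchored T-cadherin (2.51 ± 0.33). Fbln5 with 3 UMIs in Chow 2 and 7 in Chow 3 shows how few molecules these values rest on. Dnm3, Rbms3, Pdzd2 and Cdh13 overlap genes on the opposite strand, as do Bmp4, Edn1 and Selp, and Dnm3, Lhx6, Pdzd2 and Cdh13 overlap genes on their own strand.

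Of the 57 genes lower in vascular nuclei, 9 belonged to the sinusoidal list. Lyve1, the hyaluronan receptor, had no UMI in the vascular nuclei of Chow 1 and Chow 2 and 4 in each of the other libraries, against 37, 21, 102, 24 and 113 in sinusoidal nuclei, and fell by 2.39 ± 0.39 on the log2 scale (adjusted p = 1e-05). Dnase1l3, a secreted DNase, had 4, 4, 2, 6 and 20 vascular and 266, 88, 260, 45 and 189 sinusoidal UMIs (-2.16 ± 0.28). Bmp2, the endothelial ligand that sustains hepatocyte hepcidin, stood at 151 ± 70.9 CPM in vascular and 492 ± 228 CPM in sinusoidal nuclei (SD, n = 5; -1.58 ± 0.24). Bmp2 was thus lower in the class in which Bmp4 was higher. Adam23, an ADAM family surface protein, had 12, 0, 2, 10 and 31 vascular UMIs and changed by -2.06 ± 0.26, Fcgr2b by -1.72 ± 0.26, Flt4, the VEGF receptor of lymphatic and sinusoidal endothelium, by -1.60 ± 0.28, and Rasgrp3, a Ras activator, by -2.00 ± 0.34. Gatm, the first enzyme of creatine synthesis, changed by -1.67 ± 0.33, Agpat5 by -1.57 ± 0.38 and the lincRNA Gm46565 by -1.56 ± 0.32. The lectins Clec9a (-2.13 ± 0.43) and Clec1b (-1.54 ± 0.30) overlap on the same strand, so that their counts are uncertain between them.

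**Figure D2:**
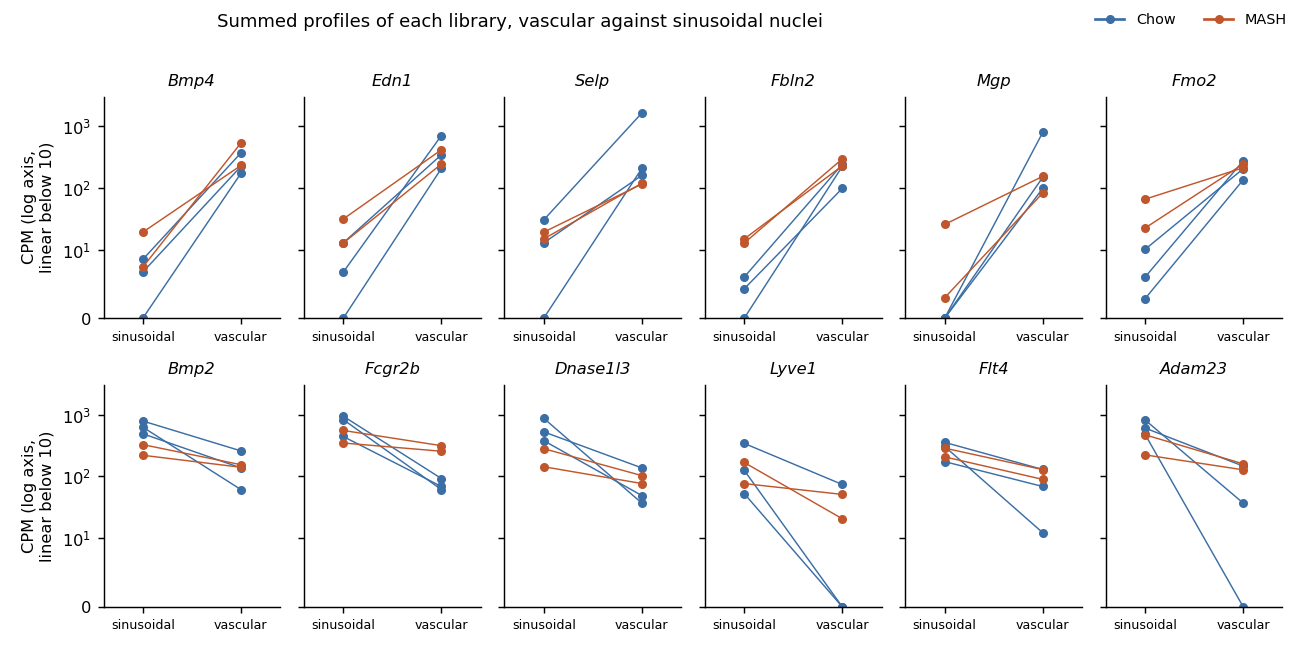
TMM-scaled CPM of 12 genes in the sinusoidal and vascular nuclei of each library (y axis logarithmic above 10 CPM and linear below). Each line joins the 2 classes of 1 library, blue for chow and orange for MASH. All 5 lines rise towards the vascular class in the upper 6 genes and fall in the lower 6.

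Lists of vessel genes gave the following counts over the genes tested, beside a median log2 fold change of -0.02 over all genes. Of the central vein genes outside the rule, 5 of 7 were tested and 4 were higher (Bmp4, Selp, Lhx6 and Cdh13), with a median of 2.72. Of the sinusoidal genes, 11 of 14 were tested and 9 were lower, with a median of -1.37, among them Stab1, the scavenger receptor stabilin-1 (442 ± 121 against 762 ± 225 CPM, -0.74 ± 0.19), and Maf, a regulator of the sinusoidal program (486 ± 151 against 1453 ± 613 CPM, -1.43 ± 0.19). The pan-endothelial list, with 14 of 15 genes tested, had a median of 0.16, with Calcrl, the adrenomedullin receptor, higher (0.89 ± 0.23) and Kdr, the main VEGF receptor, lower (-1.13 ± 0.22). Endothelial genes as a list were therefore near the sinusoidal level, while the sinusoidal and central vein lists lay to either side.

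Of the 15 portal vein and arterial genes 8 were tested, 6 of them above 0 (median 0.35), and Jag1, a Notch ligand, was higher (100 ± 77.8 against 36.4 ± 13.9 CPM, 1.61 ± 0.33), whereas Nrp1, a VEGF co-receptor, was lower (-0.72 ± 0.20). Gja5, the connexin of arteries, had 14 vascular UMIs in all, with 12 in the MASH libraries. Of the venous genes 5 of 6 were tested (median 0.46), and Vcam1 and Selp were higher. Of the lymphatic genes 4 of 7 were tested (median -1.14), with Reln higher and Flt4 and Lyve1 lower. Pdpn had no UMI and Prox1, the lymphatic regulator, had 49 (-0.68 ± 0.26, adjusted p = 0.20).

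The adhesion and chemokine list had 6 of 12 tested genes higher and none lower (20 listed, median 0.86): Vcam1, Selp, Jam2, Ccl2, Ly6a and Ly6e. Jam2, a junctional adhesion molecule, stood at 369 ± 155 CPM against 81.0 ± 76.6 (2.29 ± 0.23), and Ly6a, the stem cell antigen Sca-1, at 306 ± 253 against 48.2 ± 33.4 (2.27 ± 0.30), although 19 of the 21 Ly6a UMIs of Chow 2 lay in 1 nucleus. Edn1 and Ece1, the enzyme that matures endothelin (429 ± 172 against 161 ± 42.0 CPM, 1.33 ± 0.21), were the 2 higher genes of 6 tested in the flow, vasomotor and haemostasis list (15 listed, median 0.44). Of the angiocrine ligands, 9 of 14 were tested (median 0.51), with Bmp4, Jag1 and Kitl (1.19 ± 0.36) higher and Bmp2 lower. In the lipid handling list Fabp4, a fatty acid carrier, was higher (1.15 ± 0.21) and Gpihbp1, the anchor of lipoprotein lipase, lower (-0.94 ± 0.25) among 7 of 14 tested (median -0.28). No gene passed among the 6 basement membrane and sprouting genes tested of 17 (median -0.22), the 4 mesenchymal genes of 13 (0.24), the 6 immediate-early and stress genes of 14 (-0.07) or the 7 MHC and interferon genes of 13 (0.18).

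The HSC list moved with the class. All 5 HSC genes tested were higher in vascular nuclei (median 1.82): Dcn (411 ± 101 against 143 ± 64.0 CPM, 1.64 ± 0.22), Lrat, the enzyme that stores retinol (1.66 ± 0.35), Reln (2.05 ± 0.26), Ecm1 (1.82 ± 0.25) and Pdgfrb, the PDGF receptor of pericytes (2.03 ± 0.42). The summed level of the 8 listed HSC genes, of which Col3a1 was at 0 by the rule, was 869 to 1416 CPM without TMM scaling in vascular and 321 to 424 in sinusoidal nuclei of chow, and 850 to 892 against 207 to 253 in MASH. None of the 9 hepatocyte genes tested passed (median 0.09). The 6 mesothelial genes, none of which was tested, summed to 0 to 64.3 CPM in vascular and 0 to 16.2 in sinusoidal nuclei, higher in vascular nuclei of every library but Chow 2, with the defining Msln, Upk3b, Upk1b and Lrrn4 at 0 in vascular nuclei. The part of HSC RNA in the other differences was not tested beyond leaving out HSC-positive nuclei.

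The nuclei with a UMI of the central vein signals Rspo3 or Wnt9b were compared with the other vascular nuclei of the same library. There were 21, 10, 29, 10 and 63 such nuclei in Chow 1 to 3 and MASH 1 and 2, and 26, 12, 20, 46 and 81 others. The split used genes of the rule, so all of the others had entered by Vwf, Plvap or Cd34. Genes expressed along with a marker are selected with it, and the contrast describes which marker admitted the nuclei. By admitting marker, Bmp4 stood at 694 CPM in the Vwf nuclei and 273 in the Rspo3 or Wnt9b nuclei without Vwf. In the Plvap nuclei it stood at 68.8. Of 471 genes tested, 2 passed (0.425%). Bmp4 was higher in the Rspo3 or Wnt9b nuclei, with 18, 3, 11, 11 and 89 UMIs against 12, 2, 1, 7 and 14, and was 2.08 ± 0.44 higher on the log2 scale (adjusted p = 0.0077), a difference that had the same direction in all 5 libraries. Igfbp4, a binding protein that restrains insulin-like growth factors, was lower, with 22, 6, 18, 3 and 41 UMIs against 43, 46, 18, 54 and 100 (-1.37 ± 0.29, adjusted p = 0.0077), and 33 of its Chow 2 UMIs lay in 1 nucleus. Neither gene was called without Chow 1, Chow 2, Chow 3 or MASH 2, with mitochondrial counts under 5%, with no library block or with the nuclei admitted by Plvap alone left out, and 1 of both was called without MASH 1.

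The other question of the design was how vascular nuclei differed between diets. Vascular nuclei made up 0.579%, 0.195% and 0.458% of passing nuclei in Chow 1, 2 and 3, against 0.734% and 1.34% in MASH 1 and 2. Chow averaged 0.411% ± 0.197 (SD, n = 3) and MASH 1.03% ± 0.425 (SD, n = 2), and the groups did not overlap (exact permutation test over libraries, two-sided, p = 0.10, the smallest that 3 against 2 libraries can give, 0.10 after adjustment over 2 shares). Within the endothelium, vascular nuclei were 9.23%, 16.4% and 17.0% of vascular plus sinusoidal nuclei in chow and 24.9% and 26.4% in MASH, a difference of 11.4 percentage points (exact permutation p = 0.10, again the smallest possible).

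Both shares depended on how firmly a nucleus was marked. With at least 2 marker UMIs required, the chow libraries held 0.247%, 0.115% and 0.271% of passing nuclei and the MASH libraries 0.236% and 0.556%, so that the groups overlapped, and the difference shrank from 0.624 to 0.185 points (exact permutation p = 0.30). The share of the endothelium then differed by 2.85 points (exact p = 0.60). Without the nuclei admitted by Plvap alone the differences were 0.350 and 6.23 points (exact p = 0.40 and 0.30) and the groups again overlapped. With mitochondrial counts under 5% they were 0.474 and 7.05 points (exact p = 0.20 for both). With HSC-positive nuclei left out they were 0.340 and 9.45 points (exact p = 0.10 for both). The difference in the share of passing nuclei was 0.323 points without MASH 2 and 0.924 without MASH 1. Clec4g, which the rule requires to be absent, stood at 594, 439 and 1024 CPM in sinusoidal nuclei of Chow 1, 2 and 3 and at 206 and 249 in MASH 1 and 2, without overlap, whereas Stab2 overlapped between diets, and their part in these shares was not tested. In shares of nuclei, more nuclei of a type and more marker RNA per nucleus cannot be told apart.

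**Figure D3:**
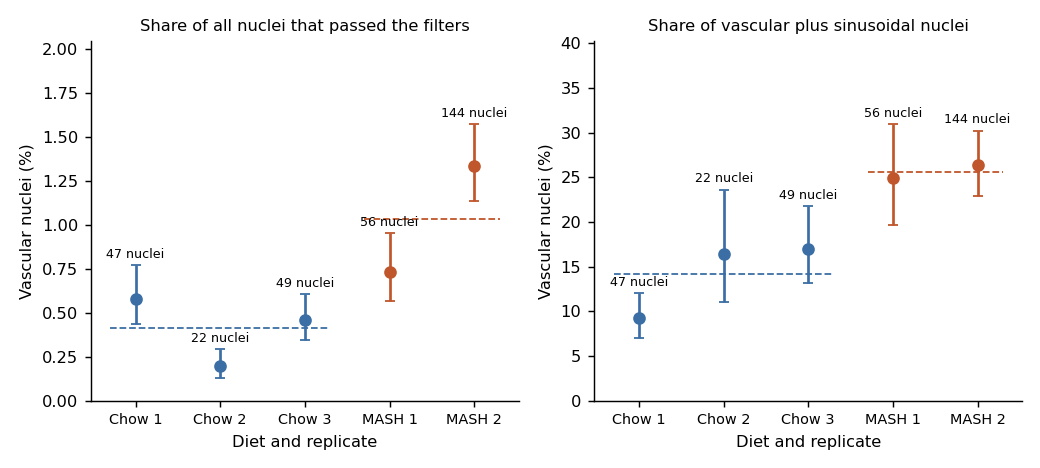
Vascular nuclei of each library as a share of all passing nuclei (left) and of vascular plus sinusoidal nuclei (right), in percent. Points carry 95% Wilson intervals, which cover counting error only, the number of vascular nuclei stands above, and dashed lines are group means. The 2 MASH libraries lie above all 3 chow libraries in both panels.

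The markers within the vascular nuclei were read after each nucleus was thinned to 500 UMIs, a depth all 318 reached. Vwf was then found in 31.9%, 27.3% and 24.5% of vascular nuclei in chow and 19.6% and 21.5% in MASH. Plvap was found in 23.4%, 13.6% and 20.4% in chow and in 37.5% and 15.3% in MASH, and Rspo3 in 21.3%, 18.2% and 42.9% in chow and in 5.36% and 27.1% in MASH. Both of these overlapped between diets, and the MASH libraries were farther apart from each other than the group means were. Cd34 lay between 2.13% and 13.6% in every library. Since the rule used these genes, no test is given, and the values describe only which marker admitted nuclei. The share of 1 marker is lower wherever another marker admits more nuclei. Without thinning the ranges over libraries were 35.7% to 42.6% for Vwf, 17.9% to 57.1% for Rspo3, 36.7% to 69.6% for Plvap and 6.38% to 16.3% for Cd34. Hnf4a-positive nuclei, which should lack these genes, had Vwf in 0.16% to 1.79%, Rspo3 in 0.67% to 3.81%, Plvap in 1.56% to 6.56% and Cd34 in 0.07% to 2.09% at their greater depth. MASH 1 stood apart, with Plvap alone or with Cd34 admitting 53.6% of its vascular nuclei against 20.4% to 31.8% in the other libraries.

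Across genes, 28 of 2147 tested in vascular nuclei differed between MASH and chow (1.3%, edgeR quasi-likelihood test, adjusted p under 0.05), 6 higher (0.279%) and 22 lower (1.02%) in MASH. The diets did not overlap for any of the 28, nor for 25.9% of all tested genes. Without Chow 2, the smallest library with 22 nuclei, 1 gene (Slco1a1) was called, and 254 genes passed at an unadjusted p under 0.05 in the full comparison. With HSC-positive nuclei left out 23 genes were called, of which 13 were among the 28. Chow nuclei numbered 118 and MASH nuclei 200.

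The 6 genes higher in MASH were Spp1, Osbpl3, Lpl, Rgs16, Srebf1 and Apoa4. Without putative doublets 2 genes were higher, with 2 marker UMIs required 0, with mitochondrial counts under 5%, the gate thinned or a stricter filter 1 each, and with HSC-positive nuclei left out 3. Spp1 (osteopontin, chromosome 5, 104435118 to 104441050, plus strand) had 0, 0 and 2 UMIs in Chow 1, 2 and 3 and 23 and 150 in MASH 1 and 2. It was found in 30.4% and 41.0% of MASH vascular nuclei and in at most 4.1% in chow, without overlap of the diets, and 52 of the MASH 2 UMIs came from 1 nucleus. The deeper Hnf4a-positive nuclei had Spp1 in 0.85% to 3.24% in chow and in 38.5% and 58.2% in MASH. The part of background RNA in the vascular shares was not tested. The fitted log2 fold change was 5.41 ± 0.86 (SE, adjusted p = 0.00612), and the ratio of pooled counts was 53.8 with a counting interval of 14.7 to 448. Lpl, lipoprotein lipase, had 0, 1 and 0 UMIs in chow and 12 and 53 in MASH (ratio 40.5, interval 7.01 to 1623, log2 fold change 4.93 ± 0.99, adjusted p = 0.0202). Osbpl3, an oxysterol-binding protein family member, had 1, 0 and 0 against 17 and 46 (ratio 39.2, interval 6.79 to 1573, adjusted p = 0.00923).

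Rgs16, a regulator of G protein signalling, had 2, 1 and 0 UMIs in chow and 18 and 46 in MASH (ratio 13.3, interval 4.34 to 66.1). Srebf1, the lipogenic transcription factor, had 2, 2 and 1 against 22 and 43 (3.02 ± 0.61, adjusted p = 0.0202). Apoa4, an apolipoprotein of triglyceride-rich particles, had 3, 0 and 7 against 44 and 60 (2.87 ± 0.66, adjusted p = 0.0491). All 6 were detected in both MASH libraries, and in chow they had from 1 UMI in all (Osbpl3 and Lpl) to 10 (Apoa4). Osbpl3 was found in at most 16.7% of vascular and 71.5% of Hnf4a-positive nuclei of a library. These highest shares were 26.8% and 75.2% for Srebf1, 18.1% and 64.9% for Rgs16, 48.2% and 68.7% for Apoa4, and 19.4% and 27.3% for Lpl. Hnf4a-positive nuclei were deeper, and the part of background RNA in these genes was not tested.

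The 22 genes lower in MASH were major urinary proteins, which carry pheromones (Mup1, Mup7, Mup11, Mup12 and Mup17), the antitrypsin Serpina1e, the organic anion transporter Slco1a1, the carboxylesterase Ces3b, Selenbp2, the steroid and fatty acid enzymes Cyp2c29, Cyp7b1, Cyp4a10, Sult2a8 and Elovl3, the complement gene C4a, Ang (angiogenin), Gadd45g, the receptor Egfr with its antisense RNA Egfros, and the noncoding Gm16348, Gm50136 and Gm12840. Mup11 had 77, 67 and 209 UMIs in chow and 3 in each MASH library, a log2 fold change of -6.47 ± 0.94 (adjusted p = 0.00531), and was found in 72.3%, 81.8% and 95.9% of chow and 5.4% and 2.1% of MASH vascular nuclei. In every library this was below the share in the deeper Hnf4a-positive nuclei (83.6% to 98.8% in chow, 5.92% and 2.4% in MASH). Without TMM scaling, the mean Mup11 level in chow was 1905 CPM in vascular nuclei and 953 CPM in all other nuclei. The part of background RNA in these UMIs was not tested. Slco1a1 (chromosome 6, 141907282 to 141946962, minus strand) had 38, 5 and 18 UMIs in chow and 0 and 1 in MASH (-6.00 ± 0.83, adjusted p = 0.00531). Mup1 had 7, 5 and 39 UMIs in chow and none in MASH, which is at least 27.3-fold lower at a floor of 3 counts over the group. Because the Mup genes and Serpina1e have near-identical paralogs, the split of reads among copies is uncertain.

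Egfros (chromosome 11, 16815431 to 16830702, minus strand) lies antisense within Egfr and had 19, 3 and 22 UMIs in chow and none in MASH, at least 23.6-fold lower. Egfr itself had 34, 15 and 45 UMIs in chow and 6 and 5 in MASH (-3.59 ± 0.64). Ces3b had 78, 21 and 3 against 1 and 3 (-5.09 ± 1.03), Selenbp2 94, 24 and 19 against 4 and 1 (-5.05 ± 0.86), Mup7 30, 44 and 98 against 1 and 0 (-7.75 ± 1.14), and Serpina1e 72, 63 and 219 against 4 and 3 (-6.21 ± 0.96). Mup17 changed by -5.52 ± 0.96 and Mup12 by -5.28 ± 1.20. The chow libraries differed several-fold among themselves for these genes, with Chow 3 highest for the Mup genes and Chow 1 highest for Ces3b and Selenbp2.

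The same genes were read in the sinusoidal nuclei and in all other nuclei of the same libraries, which share their free RNA and their mice with the vascular nuclei. In sinusoidal nuclei 68 of 7354 genes passed (0.925%, 0.49% higher and 0.435% lower in MASH) and the diets did not overlap for 32%, and in other nuclei 2870 of 16363 passed (17.5%, 12.2% higher and 5.31% lower) and 55.9% did not overlap. Over the 22 lower genes of the vascular nuclei the log2 fold changes ran from -7.78 to -2.89 in vascular nuclei (median -4.25), from -10.3 to -1.24 in sinusoidal nuclei (median -3.89) and from -7.81 to -0.51 in other nuclei (median -4.37). Over the 6 higher genes they ran from 2.87 to 5.41, from 2.36 to 4.99 and from 2.20 to 4.54. Spp1 changed by 5.41 in vascular, 4.99 in sinusoidal and 4.54 in other nuclei, and Mup11 by -6.47, -6.67 and -6.77. The difference between the vascular and sinusoidal diet effects passed for 2 of the 28, Slco1a1 (-6.00 in vascular and -2.53 in sinusoidal nuclei) and Gm16348 (-3.71 and -1.24), although for Gm16348 the difference turned to 0.13 with the gate thinned. Gm12840 changed by -3.86 in vascular, by -2.66 ± 0.90 (adjusted p = 0.22) in sinusoidal and by -0.51 ± 0.61 (adjusted p = 0.58) in other nuclei. Its vascular minus sinusoidal difference was -1.43 ± 0.67 (adjusted p = 0.56). In chow, the vascular level was 34.8% to 2406% of the level in other nuclei (median 80.5%) for the lower genes, and 15.1% to 126% (median 77.8%) for the higher genes.

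Values of other cell types moved beside these genes. The 10 listed hepatocyte genes, of which Hnf4a was at 0 by the rule, summed to 12287 to 31577 CPM in vascular nuclei of chow and 7785 to 14739 in MASH, and to 13405 to 22361 and 7337 to 9475 in other nuclei. By library, vascular against other nuclei stood at 12287 against 13405 in Chow 1, 29871 against 22361 in Chow 2 and 31577 against 21681 in Chow 3. The values were 14739 against 9475 in MASH 1 and 7785 against 7337 in MASH 2. The vascular sum was thus the higher in every library but Chow 1. None of the 9 hepatocyte genes tested passed between diets (median -1.07). The 6 listed cholangiocyte genes, which include Spp1, summed to 0 to 57.0 in chow and 277 to 735 in MASH. Spp1 alone averaged 463 CPM in MASH and 9.50 in chow, so the sum in MASH was largely Spp1 itself and adds little beside that gene. The defining Krt7 and Krt19 were at 0, and Pkhd1 was at 0 by the rule. The 8 macrophage genes, with Ptprc at 0 by the rule, summed to 28.1 to 199 and 234 to 492, and the 4 cycling genes to 0 to 33.2 and 119 to 215. Their part in the diet differences was not tested.

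**Figure D4:**
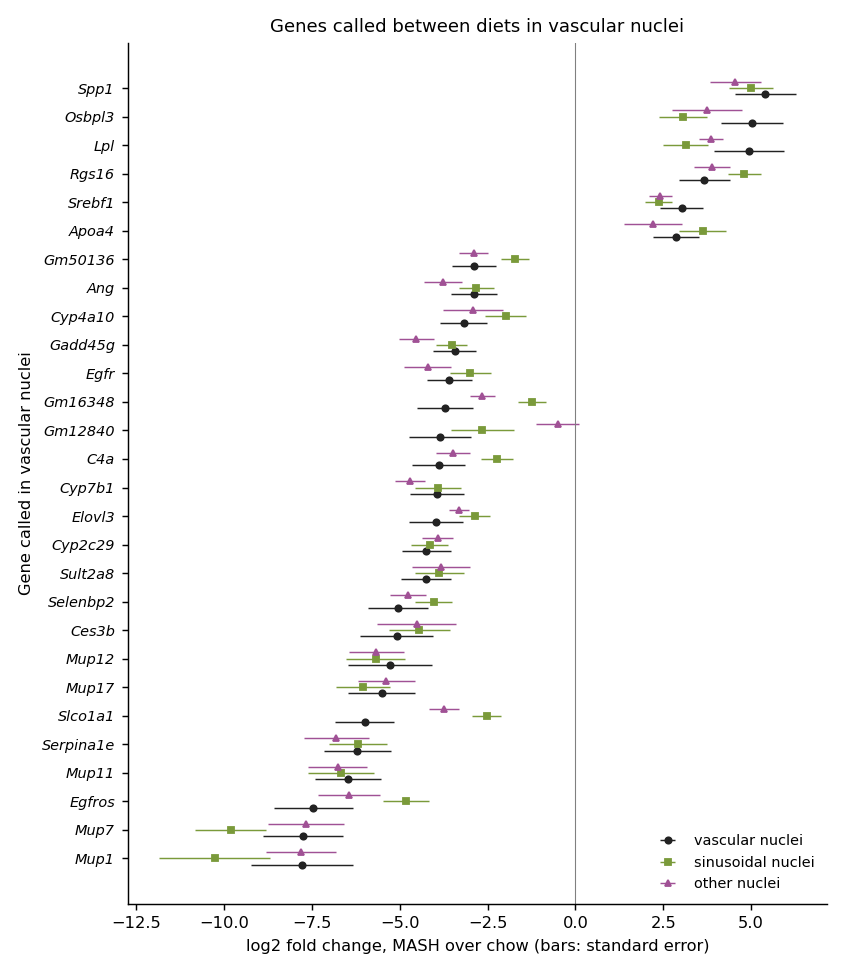
Log2 fold change of MASH over chow (x axis, bars are SE) for the 28 genes called in vascular nuclei (rows), in vascular nuclei (black circles), sinusoidal nuclei (green squares) and all other nuclei (purple triangles). The 3 sets of nuclei come from the same libraries. The 3 symbols of each gene lie on the same side of 0, nearest to it for Gm12840 in other nuclei at -0.51.

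Endothelial gene lists held few calls between diets. Lpl in the lipid handling list (1 of 8 tested, median 0.58) was the 1 gene called in any of the endothelial lists, where the median over all genes was 0.01. None was called among the 10 pan-endothelial genes tested (median -0.16), the 7 sinusoidal (0.70), the 5 central vein (0.12), the 7 portal vein and arterial (-0.05), the 4 venous (-1.12), the 10 adhesion and chemokine (-1.25), the 4 flow (0.10), the 6 angiocrine (0.08) or the 4 basement membrane genes (0.60). A p that misses the threshold does not show that the diets were alike. Bmp4 had 47 UMIs in chow and 121 in MASH (0.65 ± 0.52, adjusted p = 0.73) and Edn1 72 and 99 (-0.26 ± 0.55, adjusted p = 0.90). Selp had 107 and 32 (-2.42 ± 0.86, adjusted p = 0.26), Mgp 39 and 28 (-1.32 ± 0.76, adjusted p = 0.59) and Fbln2 27 and 67 (0.63 ± 0.50, adjusted p = 0.72). None of these genes of the class was called, and their fitted differences went in both directions.

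Among the adhesion and chemokine genes, Chow 3 stood apart from the other libraries. Vcam1, the integrin ligand for leukocytes, had 23, 5 and 130 UMIs in the vascular nuclei of Chow 1, 2 and 3 and 18 and 29 in MASH 1 and 2, and was found in 19.1%, 13.6% and 61.2% of them in chow and 25.0% and 16.0% in MASH. Chow 3 was the highest of the 5 libraries, and the other 4 overlapped. Selp (12.8%, 13.6% and 38.8% against 8.9% and 11.8%), Icam1 (23.4%, 9.1% and 46.9% against 10.7% and 16.0%), Il1r1, the interleukin 1 receptor (27.7%, 27.3% and 42.9% against 10.7% and 18.8%), and Ccl2, a monocyte chemokine (6.4%, 4.5% and 20.4% against 12.5% and 4.2%), were likewise found in the largest share of vascular nuclei in Chow 3. The diets did not overlap in these shares for Selp and Il1r1 and overlapped for Vcam1, Icam1 and Ccl2. By CPM, the diets did not overlap for 25.9% of all 2147 genes tested in vascular nuclei. Hnf4a-positive nuclei, with a median of 3662 to 5039.5 UMIs against 1051 to 1333.5, had Vcam1 in 1.63% to 11.4%, Selp in 0.87% to 7.06%, Icam1 in 6.09% to 26.2%, Il1r1 in 27.6% to 77.5% and Ccl2 in 0.36% to 7.09%. In every library the vascular share with Il1r1 was below that of the Hnf4a-positive nuclei. So were the Icam1 shares of MASH 1 and 2 and the Ccl2 share of MASH 2. Because the depths differ, these shares cannot tell background RNA from RNA of the nucleus, and its part was not tested. The fitted diet differences were -2.29 ± 0.91 for Vcam1 (adjusted p = 0.33) and -2.42 ± 0.86 for Selp (adjusted p = 0.26). Sinusoidal nuclei of Chow 3 also had the most Vcam1, with 57, 8, 169, 56 and 111 UMIs in library order.

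**Figure D5:**
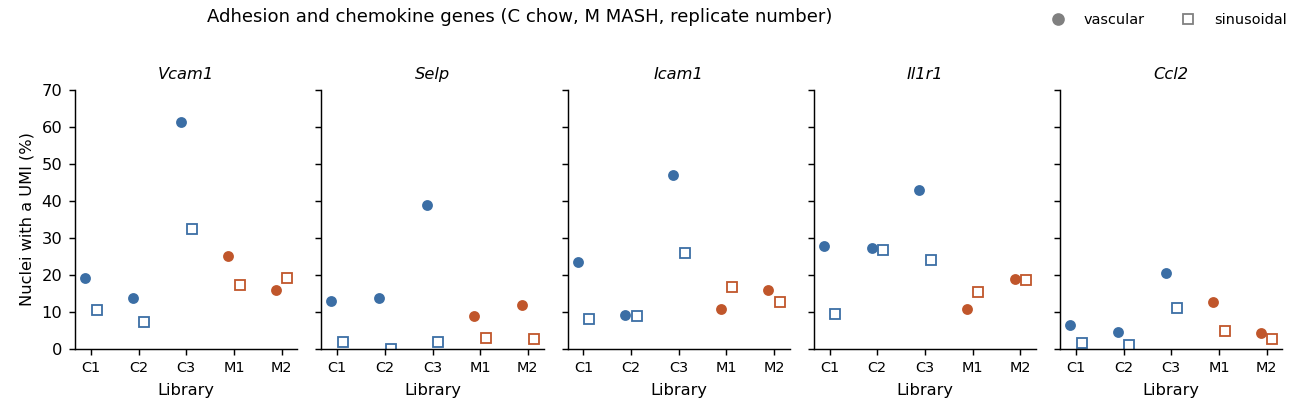
Share of nuclei with at least 1 UMI (y axis, percent) of 5 adhesion and chemokine genes in each library, C1 to C3 for chow and M1 and M2 for MASH. Filled circles are vascular and open squares sinusoidal nuclei. For all 5 genes the vascular nuclei of Chow 3 are the highest point.

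Whether the diet effect itself differed between vascular and sinusoidal nuclei was tested with an interaction term. It passed for 27 of 6075 genes (0.444%), 19 with a larger (0.313%) and 8 with a smaller value (0.132%) in vascular nuclei, and DESeq2 called 0, with 152 genes at an unadjusted p under 0.05. Among the 12 of 14 listed sinusoidal genes tested, 3 passed, all with a larger value in vascular nuclei, and the median was 1.34 against 0.07 over all genes. Fcgr2b had 5, 2 and 5 vascular UMIs in chow and 20 and 61 in MASH, against 583, 74, 281, 109 and 373 sinusoidal UMIs in library order, an interaction of 2.77 ± 0.46 (adjusted p = 1.56e-05). It was found in 9.1% to 10.6% of chow and 23.2% and 30.6% of MASH vascular nuclei, and in 3.4% to 11.1% of Hnf4a-positive nuclei. Mrc1, the mannose receptor (2.08 ± 0.49, adjusted p = 0.0126), and Maf (1.51 ± 0.31, adjusted p = 0.00285) were the other 2 genes. The lower Clec4g of sinusoidal nuclei in MASH, given above with the shares, moved beside these genes, and its part was not tested. Vcam1 passed in the other direction (-1.88 ± 0.39, adjusted p = 0.00285).

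With at least 2 marker UMIs the interaction passed for 3 genes, with HSC-positive nuclei left out for 5 and without MASH 1 for 3. Without Chow 3, the library with the most Vcam1, 8 genes passed.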

How the data were processed

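Nuclei sorted from frozen mouse liver were profiled by 10x snRNA-seq in 3 chow and 2 MASH libraries. The authors aligned reads with Cell Ranger 8.0.1 to GRCm38 with intronic reads left out, and deposited raw UMI counts per gene and nucleus for each library. The members and gene lists were chosen with earlier results of these data known.

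From the deposited counts, nuclei with at least 300 genes and a mitochondrial share under 10% were kept, and classes were cut by the marker rule given above. Doublets were scored with Scrublet (scanpy 1.11.5), whose own threshold called 0 to 3 nuclei per library. Putative doublets are instead the 585 to 1333 nuclei of highest score per library, a number set by a rate of 0.8% per 1000 nuclei. They were left in, except in an alternative. Counts were summed per library and class where at least 10 nuclei were present. Low genes were removed with filterByExpr, and edgeR 4.0.16 (R 4.3.3, limma 3.58.1) with TMM scaling gave quasi-likelihood tests, two-sided, with Benjamini-Hochberg adjustment over all genes fitted. Gate genes were fitted and adjusted with the others and then left out of the numbers of genes tested and called. Comparisons of classes had the library as a block, and the difference of diet effects was an interaction term. Shares were compared with exact permutation tests over libraries (scipy 1.17.1). Scripts were tested on simulated data. Intervals and floors (3 counts) cover counting error only.

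Named genes were, among those called with 1 direction in every library, the 10 with the highest and the 10 with the lowest log2 fold change between diets. By the same condition the 12 highest and the 12 lowest between classes and the 6 highest and the 6 lowest for Rspo3 or Wnt9b were named. The 5 largest and the 5 smallest differences of diet effects were taken from all genes called, without that condition. Called members of the lists were named as well. The other genes lower in MASH, Mgp and the nuclei holding most UMIs of a gene were described after their values were seen. Alternatives were DESeq2 1.42.0, other scalings, filters, gates and depths, and leaving out each library. Coordinates came from the GENCODE annotation on GRCm38.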

Additional observations from a re-analysis of the deposited data

Results flagged for a closer look

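The diet effect differed between vascular and sinusoidal nuclei for 27 genes by the interaction test of edgeR (adjusted p under 0.05), and the 10 at either end are given with their vascular minus sinusoidal difference on the log2 scale and its SE. DESeq2 called 0 genes. UMIs are in the order Chow 1, 2 and 3, then MASH 1 and 2.

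Xpc, a DNA damage sensor, had 0, 0, 0, 6 and 11 vascular and 48, 13, 15, 11 and 39 sinusoidal UMIs, a difference of 7.37 ± 1.97, and was at least 3.53-fold higher in MASH in vascular nuclei. A130014A01Rik differed by 4.39 ± 1.13, with 0, 0, 1, 4 and 12 vascular UMIs. Gm46565 differed by 3.47 ± 0.82, with 0, 2, 0, 8 and 32 vascular UMIs against 202, 33, 56, 50 and 198 sinusoidal UMIs. Zbtb46, a transcription factor of endothelium and dendritic cells, differed by 2.81 ± 0.71 (1, 1, 3, 6 and 22 vascular UMIs), and Csprs by 2.80 ± 0.70 (3, 1, 1, 6 and 29). These 5 genes had few vascular UMIs in every chow library.

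Cd200, a ligand that restrains myeloid cells, had 4, 3, 20, 6 and 18 vascular UMIs, whereas sinusoidal nuclei had 0, 0, 0, 4 and 14, a difference of -5.87 ± 1.48, and it was at least 7.23-fold higher in MASH in sinusoidal nuclei. Slco1a1 differed by -3.87 ± 1.0, with 38, 5, 18, 0 and 1 vascular and 199, 46, 51, 13 and 28 sinusoidal UMIs. Fmo2 differed by -2.73 ± 0.70, and its sinusoidal UMIs were 2, 1, 3, 7 and 44. Gm16348 differed by -2.71 ± 0.73 (19, 8, 8, 0 and 4 vascular UMIs) and Slc1a2, a glutamate transporter, by -2.19 ± 0.59 (14, 7, 2, 4 and 8). With the gate applied to thinned counts the differences of Gm16348 and Slc1a2 turned to 0.13 and 0.73. Cd200 and Fmo2 were the 2 of these 5 with more sinusoidal UMIs in each MASH library than in any chow library.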

How the results depend on the processing

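The 28 genes called between diets in vascular nuclei became 14 with 2 marker UMIs required, 17 with mitochondrial counts under 5%, 68 with no filter on low counts and 11 with a stricter filter, and 1 to 31 when a library was left out. The 139 genes called between classes became 37 with mitochondrial counts under 5%, 70 with the gate applied to thinned counts, 67 with HSC-positive nuclei left out, 247 with no filter, 88 with a stricter filter and 70 with DESeq2, and 71 to 130 without a library. The 27 differences of diet effects became 3 with 2 marker UMIs, 4 with mitochondrial counts under 5%, 10 with the gate thinned, 9 with nuclei admitted by Plvap alone left out, 5 with HSC-positive nuclei left out and 0 with DESeq2 (152 at an unadjusted p under 0.05), and 3 to 33 without a library. The alternatives that left out Plvap-only and HSC-positive nuclei were chosen after seeing the data. The 68 genes called between diets in sinusoidal nuclei became 417 with no filter and 159 with DESeq2, and 11 to 151 without a library, and the 2870 in other nuclei became 4393, 4508 and, with Storey's q-values, 5244, and 175 to 3586 without a library. The 2 genes of the Rspo3 or Wnt9b comparison became 1 with Cd34 dropped, 0 with mitochondrial counts under 5%, 4 with 500 genes required, 6 with the gate thinned, 0 without Plvap-only nuclei, 10 with no filter, 1 with a stricter filter and 1 with at least 20 nuclei, and 0 to 2 without a library.

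Chow and MASH libraries shared only the numbers 1 and 2, and the numbers were taken as names and not as pairs. Deviations of same-numbered libraries from their group means had correlations of -0.22 and -0.26. With 2 MASH libraries these deviations mirror each other, so that the correlations cannot show whether pairs exist. With the replicate block, 33 genes were called in vascular, 118 in sinusoidal and 1496 in other nuclei. With no replicate block, where the block was the library, 24 genes were called between classes and 0 in the Rspo3 or Wnt9b comparison.

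The Cd34 difference between diets turned from -3.75 to 0.935 points at 300 UMIs and 0.825 at 1000, and the Plvap difference ran from -3.87 to 18.4 points without a library. With the gate thinned, Gm16348 moved to 0.13 and Slc1a2 to 0.73. Of the other values of named genes, 703 kept direction and call and 209 lost the call. The cause was not tested. Of the 318 vascular nuclei 178 had 1 marker UMI, and a library held 35553 to 217594 vascular UMIs, which limits the precision of each value.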

Other observations

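Single nuclei carried markers of other cells. In Chow 1, 1 of the 47 vascular nuclei held all 25 UMIs of S100a8 and all 31 of S100a9, which encode the neutrophil calprotectin subunits. In Chow 2, 1 of the 22 held all 8 UMIs of Acta2, the smooth muscle actin, and no other library had an Acta2 UMI in a vascular nucleus.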
